A study of Mus musculus with 3 samples.

Results

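Tetraspanins are small membrane proteins that cross the membrane with 4 helices and carry a small and a large extracellular loop. They bind integrins, immunoglobulin-superfamily proteins and one another in the plane of the membrane, and are known for organising these partners into membrane patches, for sorting cargo to endosomes and extracellular vesicles, and, in macrophages, for restraining cell fusion. The genes described here are 8 tetraspanins, Cd9, Cd37, Cd53, Cd81, Cd82, Cd151, Tspan3 and Tspan4, chosen by symbol and found among 55536 gene rows by the identifier that each transcript name carries. Each symbol had 1 identifier.

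The samples were 3 libraries of 1 condition: the cytosolic fraction of C57BL/6J mouse macrophages grown from bone marrow and treated with Lipid A, the membrane anchor of bacterial lipopolysaccharide, at 100 ng/ml for 20 min. Total RNA was sequenced after depletion of ribosomal RNA. Age and sex were not recorded and no transgene is named. The labels number the libraries as biological replicates 1, 2 and 3 but give them the same donor identifier, so an SD here covers differences between libraries that may in part be technical. Untreated cells, later times and nuclear RNA are not analysed here. No gene is therefore called induced or repressed, and levels are described with no test between groups.

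The libraries held 27392626, 81597761 and 37176950 expected counts in replicates 1, 2 and 3. Nuclear-encoded protein-coding genes took 25.0%, 22.0% and 19.6% of the TPM (a transcript level per length, scaled to a fixed sum in each library), so TPM was also rescaled to the same fixed sum over these genes alone in each library. All 8 macrophage markers examined, Csf1r, Adgre1, Itgam, Cd68, Lyz2, Mertk, Fcgr1 and Cd14, reached 1 TPM in every library, with a summed level of 4882 to 7049.7 TPM. Of the markers of other cells, 0 of 5 for B cells, 0 of 5 for T and NK cells, 0 of 5 for megakaryocytes and platelets, 0 of 5 for dendritic cells, 0 of 4 for mast cells and basophils and 0 of 4 for fibroblasts did so, against 3 of 6 for neutrophils (Ngp, S100a8 and S100a9, with the 6 summing to 18.3 to 26.9 TPM) and 1 of 4 for endothelium (Kdr, at a mean of 2.36 TPM). After rescaling, 1 marker reached 1 in every library for each of B cells, megakaryocytes and platelets, dendritic cells, and mast cells and basophils. The other counts stayed the same.

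What the family shares at the sequence level is the Cys-Cys-Gly motif of the large extracellular loop, whose cysteines form the disulfide bonds that fold this loop. In the leading transcript of each gene, 1 such motif lay between residues 120 and 180, starting at residue 144 in Cd53 and at residue 156 in Cd81. The coding stretches around it are shown because they mark each gene as a tetraspanin and carry a splice position common to all 8. They come from the GENCODE M21 transcripts on mm10, 5′ to 3′ on the coding strand, with the 3 codons of the motif in capitals.
Cd53: caactgcagTGTTGTGGTgtaaatggctca
Cd9: gcgttggacTGCTGTGGCatagctggtcct
Cd37: cagctgcgcTGCTGCGGCtggcaatctccg
Cd81: acgctcaacTGTTGTGGCtccaacgcactg
Cd82: caggtcaagTGCTGTGGCtgggtcagccac
Cd151: gagttccacTGTTGTGGCagcaacaactct
Tspan3: cagttgcacTGTTGTGGAattcataactat
Tspan4: gatttccgaTGCTGTGGAgtttccaattac

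The second cysteine codon was tgt in 7 of the 8 stretches, with Cd37 as the exception, whereas the first was tgt in 4 and tgc in the rest. In all 8 genes an exon ended after base 3 of the printed stretch, 6 bases before the first cysteine codon, so that the coordinates given with each stretch span an intron. That intron ranged in length between 84 bases in Cd151 and 4034 bases in Cd53. In the rest of the superfamily, 22 of 23 genes had the motif in the same residue window of their longest coding transcript, and 18 of these 22 had an exon end at the same distance. Prph2, Rom1, Tspan13 and Tspan31 had the motif without it. The stretches were located as follows: Cd53 chr3:106763266-106767329, Cd9 chr6:125462177-125462329, Cd37 chr7:45235617-45236117, Cd81 chr7:143066350-143066687, Cd82 chr2:93420729-93421829, Cd151 chr7:141470223-141470336, Tspan3 chr9:56145901-56146516 and Tspan4 chr7:141491671-141491800.

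Beyond this motif the 8 proteins differed widely. They have between 219 residues (Cd53) and 281 residues (Cd37). Over the 28 pairs the identity in aligned columns without gaps ranged between 26.9% and 47.1%, with a median of 31.1%. Cd9 and Cd81, which share several partners, were the most alike at 47.1%, followed by Cd53 and Tspan4 at 40.4%. At this divergence none of the 8 is a near-identical copy of another.

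All 8 tetraspanins reached 1 TPM in each of the 3 libraries, and all 8 reached 5 TPM. Of all gene rows, 16.8% reached 1 TPM in all 3 libraries, and of the 22015 nuclear-encoded protein-coding genes 40.5% did. No such share was computed at 5 TPM. After rescaling, that share was 47.4%. The median of the 8 mean levels was 28.0 TPM, against 6.51 TPM over the 9730 genes whose mean reached 1 TPM. In a bulk library, RNA present in fewer cells and less RNA per cell cannot be told apart, so these levels are averages over all cells taken.

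**Figure D1:**
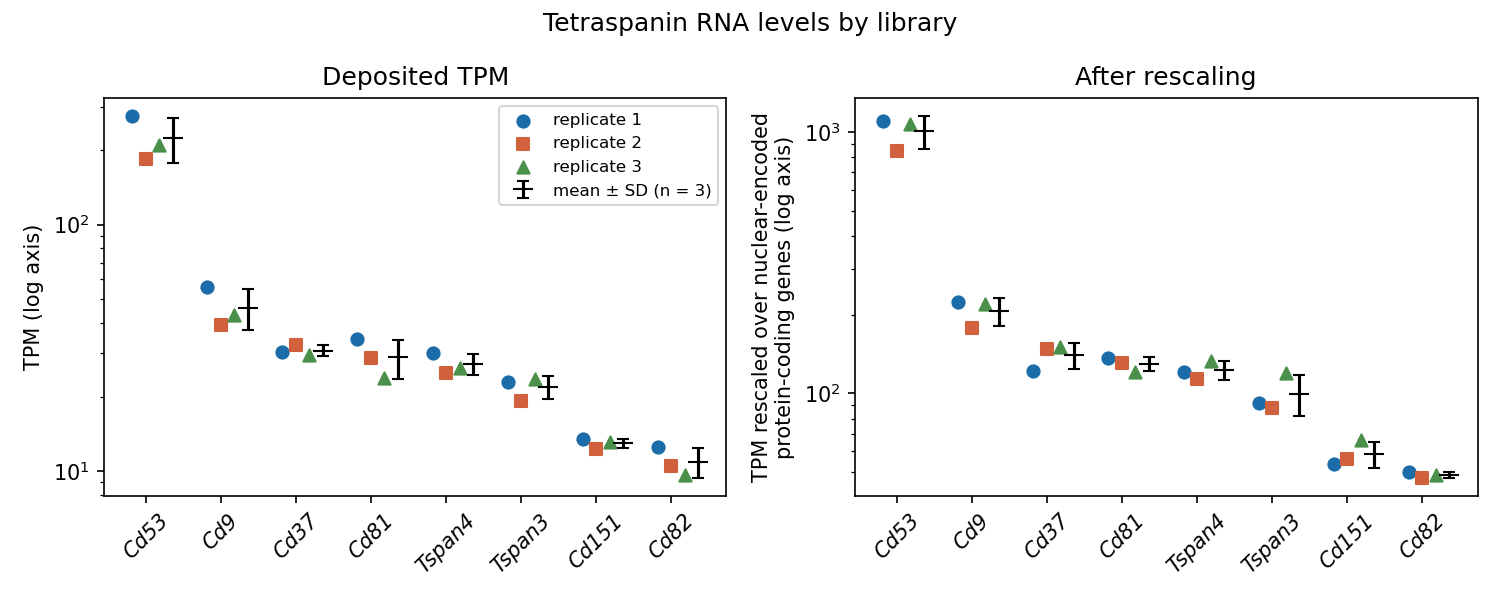
Level of each of the 8 tetraspanin genes in replicates 1, 2 and 3, as deposited TPM (left) and after rescaling to the nuclear-encoded protein-coding total (right), both on log axes; the black mark and bar are the mean and SD of the 3 libraries. Cd53, at 185 to 276 TPM, lies above every other gene in every library, and Cd82 and Cd151 lie lowest, at 9.61 to 13.4 TPM.

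The leukocyte tetraspanins Cd53 and Cd37 are described first, then Cd82. Cd53, a pan-leukocyte tetraspanin (gene at chr3:106759921-106790149, minus strand), had 276, 185 and 211 TPM in replicates 1, 2 and 3, with 21078, 46765 and 25343 expected counts. Its mean of 224 ± 46.6 TPM (SD, n = 3) ranked 113th among nuclear-encoded protein-coding genes. Replicate 1 was high and replicates 2 and 3 were nearer to each other. After rescaling, the values were 1105, 843 and 1074, so that replicate 2 alone was low. Cd53 held 55.4 ± 2.77% of the summed TPM of the 8 genes, more than the other members together in every library, at 58.1%, 52.5% and 55.5%.

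Cd37, known for its role on B cells and other mature leukocytes (chr7:45233632-45239115, minus strand), had 30.4, 32.5 and 29.6 TPM, or 30.8 ± 1.54 TPM. These values spread over a factor of 1.10. Rescaled, they were 122, 148 and 150, and replicate 1 was then low. It was the member whose TPM was highest in replicate 2, and its share of the summed TPM of the 8 genes was 6.39%, 9.22% and 7.78%. The 5 B cell markers summed to 0.66 to 1.02 TPM.

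Cd82, also called KAI1 and known as a suppressor of tumour cell motility (chr2:93419111-93463140, minus strand), was the lowest of the 8. It had 12.5, 10.5 and 9.61 TPM, or 10.9 ± 1.49 TPM. The library order in TPM followed the protein-coding share of each library. After rescaling it had 50.1, 47.5 and 48.9, a ratio of 1.05 between the highest and the lowest library, the narrowest of the 8.

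The integrin- and receptor-associated tetraspanins were Cd9, Cd81 and Cd151. Cd9, an abundant platelet and macrophage tetraspanin that with Cd81 restrains macrophage fusion (chr6:125460266-125494791, minus strand), had 55.6, 39.0 and 43.2 TPM, or 45.9 ± 8.65 TPM. Rescaled values were 223, 177 and 220, and replicate 2 was low, as for Cd53. The 5 megakaryocyte and platelet markers summed to 0.82 to 1.54 TPM, with Ppbp highest at a mean of 0.873 TPM.

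Cd81, in humans an entry receptor of hepatitis C virus (chr7:143052739-143067934, plus strand), had 34.2, 28.8 and 23.8 TPM, or 28.9 ± 5.23 TPM. On the rescaled values of 137, 131 and 121 the spread between libraries narrowed, to a ratio of 1.13 against 1.44 in TPM. Cd151, a partner of laminin-binding integrins (chr7:141467392-141471473, plus strand), had 13.4, 12.3 and 13.1 TPM, or 12.9 ± 0.560 TPM. For this gene rescaling widened the spread, to 53.7, 56.0 and 66.4.

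Of the remaining genes, Tspan4 is known as a marker and builder of migrasomes, the vesicles that migrating cells leave on their retraction fibres (chr7:141475240-141493427, plus strand). It had 30.04, 25.0 and 26.3 TPM, or 27.1 ± 2.62 TPM, and 120, 114 and 134 after rescaling. Tspan3 (chr9:56131725-56165477, minus strand) had 22.9, 19.3 and 23.5 TPM, or 21.9 ± 2.29 TPM. Its rescaled values of 91.6, 87.6 and 120 put replicate 3 above the others and gave the widest ratio of the 8, 1.37.

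Ratios taken within a library remove its scale, and were used to ask which neighbours in the order of levels could be told apart. Their SD covers repeatability between libraries only, and an error in the level of 1 gene that recurs in every library would not enter it. A pair was called separated where the higher gene was higher in 3 of 3 libraries and the mean log2 ratio exceeded 2 SD. An exact two-sided sign-flip test over 3 libraries cannot go below p = 0.25, so no p-value is given. By this rule 3 of the 7 neighbouring pairs were separated, and the same number in the second transcript table. Without 1 library the rule asks for 2 of 2 libraries with an SD from 2 values, so its counts are not directly comparable. Without replicate 1, 5 of the 7 were separated in this way: Cd9 over Cd37, Cd37 over Cd81 and Cd151 over Cd82 were added and Tspan4 over Tspan3 was lost.

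**Figure D2:**
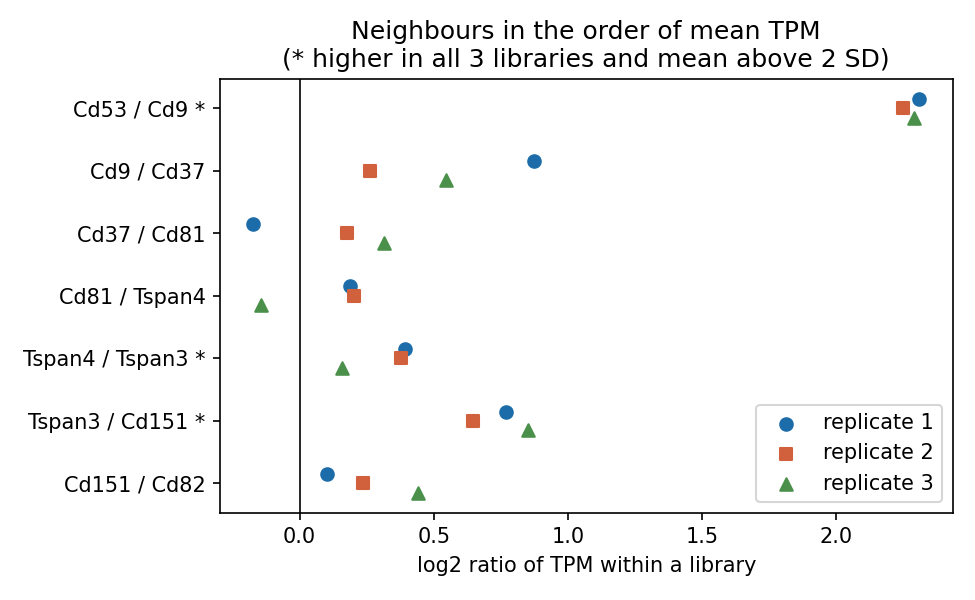
Log2 ratio of TPM within each library for the 7 pairs of neighbours in the order of mean TPM, with 1 point per library and a line at equal levels. Cd53 over Cd9 lies between 2.25 and 2.31, while Cd37 over Cd81 and Cd81 over Tspan4 cross the line.

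Cd53 exceeded Cd9 by 2.28 ± 0.03 on the log2 scale, a mean ratio of 4.87 that was nearly the same in the 3 libraries. Tspan4 exceeded Tspan3 by 0.31 ± 0.13, and Tspan3 exceeded Cd151 by 0.75 ± 0.10. The steps of Cd53 over Cd9 and of Tspan3 over Cd151 stayed separated without each library in turn. Tspan4 over Tspan3 did not: it was 0.27 ± 0.15 without replicate 1 and 0.28 ± 0.17 without replicate 2, neither above 2 SD.

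Cd9 was above Cd37 in all 3 libraries, at log2 ratios of 0.87, 0.26 and 0.55, but the mean of 0.56 ± 0.31 did not exceed 2 SD; it did without replicate 1 (0.40 ± 0.20) and without replicate 2 (0.71 ± 0.23). For Cd37 over Cd81 the ratio was 0.11 ± 0.25, with Cd37 higher in 2 of 3 libraries. Cd81 over Tspan4 gave 0.08 ± 0.20, again with the first gene higher in 2 of 3, and 0.20 ± 0.01 without replicate 3, which alone had Tspan4 higher. Over all 3 libraries the order of Cd37 and Cd81 and that of Cd81 and Tspan4 were therefore not resolved. Neither was that of Cd151 over Cd82, at 0.26 ± 0.17. The rule was not applied to Cd37 and Tspan4, which are not neighbours. Cd37 was higher in each library, at 30.36, 32.54 and 29.56 TPM against 30.04, 25.01 and 26.26.

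Set in the whole superfamily of 31 genes, the 8 held 53.2 ± 0.891% of the summed tetraspanin TPM. The endosomal and lysosomal tetraspanin Cd63 was the highest gene of the family, at 357, 255 and 265 TPM, or 38.5 ± 0.897% of the family's TPM. Cd53 followed with 29.5 ± 1.44%. Cd63 exceeded Cd53 by 0.39 ± 0.07 on the log2 scale and was higher in 3 of 3 libraries. The 5 highest genes outside the 8 were Cd63, Tspan31 (23.0 TPM), Tspan14 (20.4 TPM), Tspan17 (7.23 TPM) and Tspan13 (4.89 TPM).

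Tspan31 and Tspan14 fell among the members in the order. The log2 ratio of Tspan31 over Tspan3 was 0.06 ± 0.27 and that of Tspan3 over Tspan14 was 0.10 ± 0.17. Each was positive in 2 of 3 libraries, so neither pair was separated. The rule was not applied to Tspan31 and Tspan14. Tspan31 was higher in each library, at 28.45, 20.63 and 20.04 TPM against 22.89, 19.2 and 19.05. Cd82, the lowest member, exceeded Tspan17 by 0.58 ± 0.14 and was higher in 3 of 3 libraries.

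**Figure D3:**
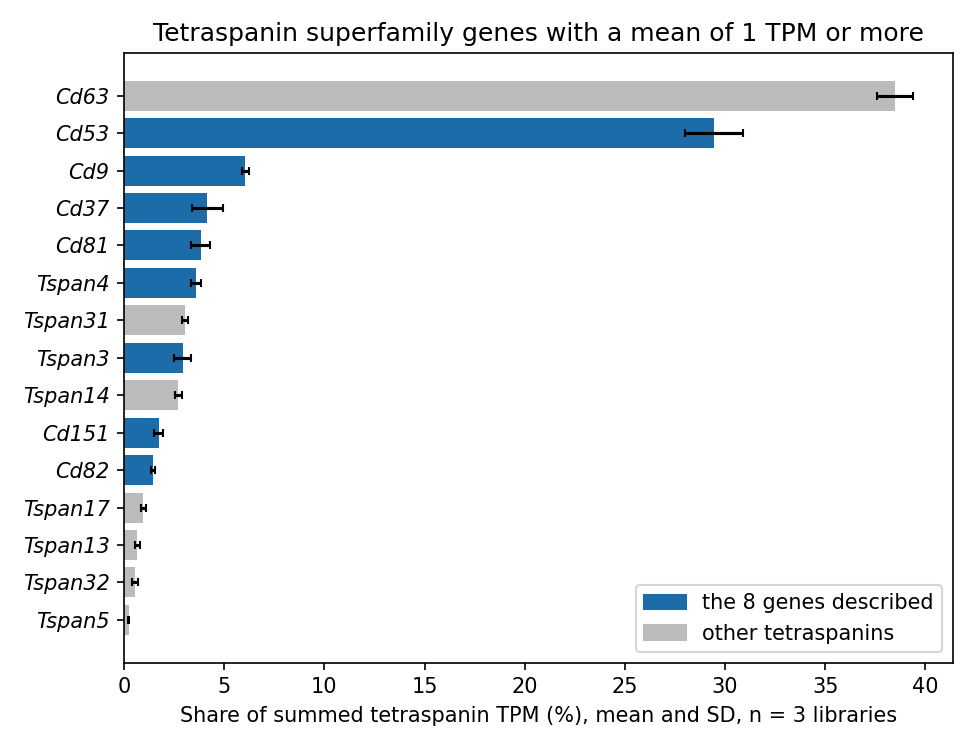
Share of the summed TPM of 31 tetraspanin genes held by each gene with a mean of 1 TPM or more, mean and SD of 3 libraries, with the 8 genes described in blue and the others in grey. Cd63 and Cd53 hold 38.5% and 29.5%, and Cd9 comes next with 6.05%.

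Of the other 23 tetraspanins, 7 reached 1 TPM in all 3 libraries and 16 were below it in all 3. After rescaling 10 of the 23 reached it. The highest of these 16 was Rom1, a photoreceptor disc tetraspanin, at 0.493 TPM. Tspan1, Tspan6, Tspan11, Tspan15, Upk1b and Prph2 had no expected count in any library. At 3 counts this allows up to 0.110, 0.0368 and 0.0808 CPM (counts scaled by library total) in replicates 1, 2 and 3, for counting error only. The second transcript table gave Tspan15 0.0108, 0.00650 and 0.0151 TPM, and Tspan1 0.0120 TPM in replicate 1 alone. Nuclear-encoded protein-coding genes took 10.5%, 8.92% and 6.71% of the TPM in that table, so its TPM is not on the scale of the gene table. Every one of the 8 members had at least 982 expected counts in every library.

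Each gene was then followed to its annotated transcripts. The first transcript table and the second one estimate transcript shares in different ways, and both are given. In 4 of the 8 genes, Cd53, Cd9, Cd81 and Tspan3, 1 transcript held nearly all of the TPM. Cd53 has 1 annotated transcript. Cd9-201 held 99.9 ± 0.0855% in the first table and 99.6 ± 0.269% in the second, and Tspan3-201 held 99.6 ± 0.134% and 97.7 ± 1.49%. For Cd81-201 the shares were 99.9%, 99.9% and 99.3% in the first table and 100%, 90.4% and 98.6% in the second. In replicate 2 the second table gave 9.29% to Cd81-204, a shorter coding model to which the first table gave 0.

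**Figure D4:**
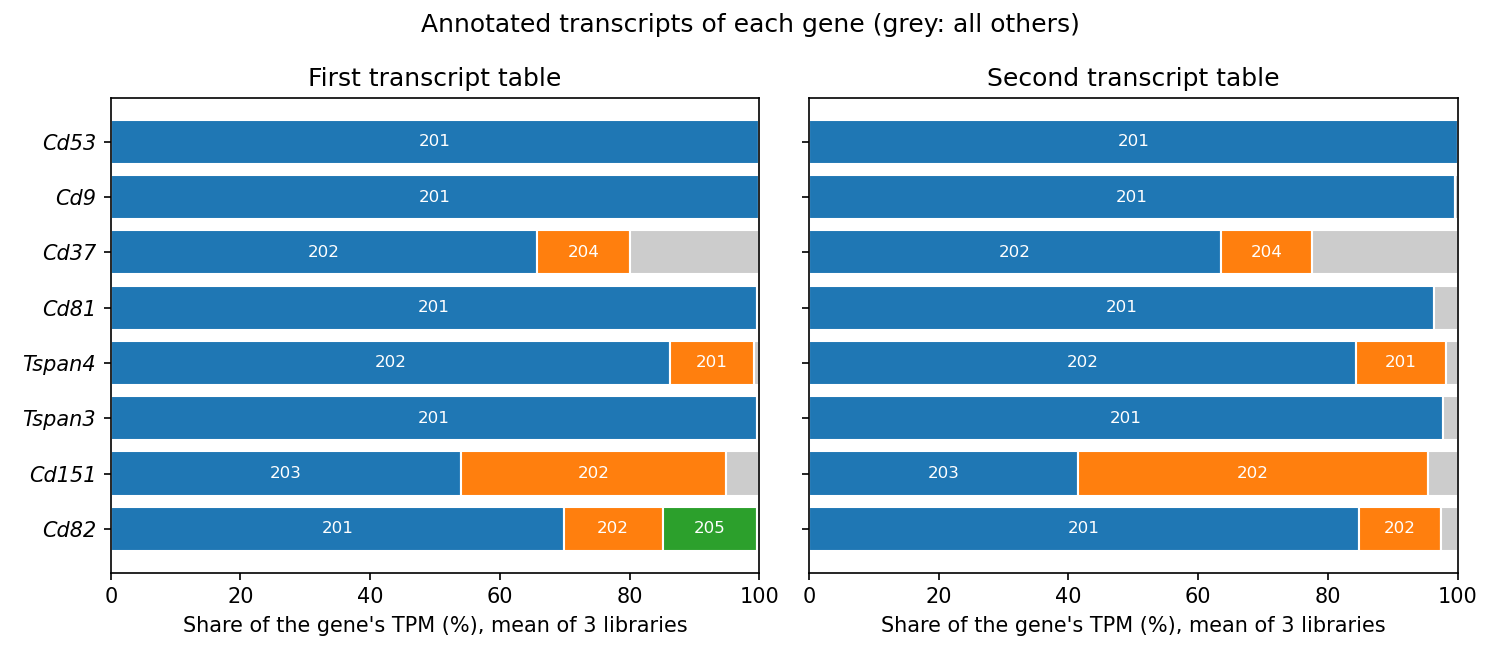
Mean share of each gene's TPM in its annotated transcripts over 3 libraries, in the first (left) and second (right) transcript table; numbers are transcript name endings, colours mark transcripts at 10% or more in either table and grey is the rest. Cd151 changes its leading transcript by mean share between the tables, and Cd82-205 appears at 14.5% in the first table only.

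The other 4 genes divided their TPM among transcripts. For Tspan4, Cd82 and Cd151 the division was not of proteins: every transcript at 10% or more encodes the same protein of its gene, of 238, 266 and 253 residues. Tspan4-202 held 85.9%, 85.7% and 87.1% of the gene's TPM and Tspan4-201 held 13.9%, 13.3% and 11.7%. The second table gave close shares, 84.4 ± 1.52% and 13.8 ± 1.30%. Tspan4-201 starts 1160 bases upstream and has a leader of 275 bases before the coding sequence, against 96 bases in Tspan4-202.

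Cd151-203 and Cd151-202 start 29 bases apart, with leaders of 180 and 327 bases. In the first table Cd151-203 led, with 46.8%, 51.4% and 64.0% against 46.3%, 41.9% and 34.02% for Cd151-202. In the second table the shares of Cd151-203 were 33.6%, 39.8% and 51.0%, against 59.3%, 56.7% and 45.8% for Cd151-202, so that Cd151-202 led in replicates 1 and 2 and Cd151-203 in replicate 3. The share of Cd151-203 was highest in replicate 3 and lowest in replicate 1 in both tables. Which of the pair led therefore depended on the table in replicates 1 and 2.

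Cd82-201 held 69.8 ± 4.29% in the first table and 84.8 ± 2.09% in the second, and Cd82-202 held 15.3 ± 0.653% and 12.7 ± 0.402%. Cd82-205, whose start lies 444 bases upstream of that of Cd82-201, had 9.44%, 17.6% and 16.4% in the first table. In the second table it had essentially none, and the use of that start was thus seen in 1 of the 2 tables.

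Cd37 was the member whose transcripts encode different proteins. Cd37-202, of 281 residues, held 65.9%, 66.7% and 64.8% of the TPM. Cd37-204, of 252 residues and 94.4% identical over the aligned columns, held 15.6%, 12.5% and 14.9%, and Cd37-201 held 6.81 ± 0.993%. The second table gave 63.6 ± 0.539% to Cd37-202 and 14.0 ± 1.73% to Cd37-204. In the first table the leading coding sequence thus carried 65.8% of this gene's TPM, against 98.2% or more in each of the other 7. In the second table it carried 63.6%, against 96.3% or more.

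Transcripts annotated as retaining an intron took little of any member. The largest share was 1.26 ± 0.635% in Cd151, from 0.894%, 0.892% and 1.99%, and the next 0.596 ± 0.329% in Tspan4. The median over the 8 genes was 0.105%, against 0.442% over 3397 protein-coding genes averaging 10 TPM or more, of which 36.4% had none. The second table gave a median of 0.321% for the 8 and 0.675% over 3395 genes. Cd37, Cd53 and Cd82 have no transcript of this kind in the annotation, so a share of 0 there says nothing about their unspliced RNA.

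Promoter windows bear on the Tspan4 starts and on the pair of leukocyte genes, and are shown for these. RefSeq (GRCm38.p6) windows of 300 bases, 250 before and 50 after an annotated start, numbered 13 for the 8 genes. Capitals mark GAGGAA (the core bound by the myeloid factor PU.1), GGGCGG (the core bound by Sp1) and TATAAA, searched on both strands, with no overlap among the matches. The Tspan4 windows belong to the upstream start of Tspan4-201 (chr7:141474986-141475285) and to the downstream start of Tspan4-202 (chr7:141476130-141476429), both on the plus strand.
Tspan4 upstream start: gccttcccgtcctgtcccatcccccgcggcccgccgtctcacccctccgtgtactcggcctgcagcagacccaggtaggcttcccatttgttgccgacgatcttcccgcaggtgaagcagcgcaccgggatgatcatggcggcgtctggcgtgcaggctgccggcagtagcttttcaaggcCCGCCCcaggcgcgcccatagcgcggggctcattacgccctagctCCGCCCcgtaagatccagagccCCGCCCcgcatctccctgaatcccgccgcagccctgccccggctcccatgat
Tspan4 downstream start: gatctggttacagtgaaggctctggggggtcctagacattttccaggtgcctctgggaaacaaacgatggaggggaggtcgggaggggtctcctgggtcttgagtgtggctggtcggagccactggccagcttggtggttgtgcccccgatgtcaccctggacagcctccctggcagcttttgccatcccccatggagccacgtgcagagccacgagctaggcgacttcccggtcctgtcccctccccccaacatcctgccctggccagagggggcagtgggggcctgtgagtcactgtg
The window of the minor start was 68.7% GC with 29 CpG and 3 GGGCGG matches, and that of the major start 63.7% GC with 8 CpG and no match to any of the 3 motifs. The upstream window also holds the start of Polr2l, a subunit of RNA polymerase on the minus strand, at 4.31 ± 0.491 TPM.

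The windows of Cd53 (chr3:106790100-106790399, minus strand) and Cd37 (chr7:45238790-45239089, minus strand) belong to the starts that give 100% and 84.2% of the gene's TPM.
Cd53: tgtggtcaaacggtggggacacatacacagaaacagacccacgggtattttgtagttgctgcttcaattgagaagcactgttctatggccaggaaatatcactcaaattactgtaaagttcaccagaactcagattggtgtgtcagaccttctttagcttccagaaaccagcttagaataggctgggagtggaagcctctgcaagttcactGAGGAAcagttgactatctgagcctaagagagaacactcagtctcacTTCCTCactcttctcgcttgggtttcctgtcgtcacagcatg
Cd37: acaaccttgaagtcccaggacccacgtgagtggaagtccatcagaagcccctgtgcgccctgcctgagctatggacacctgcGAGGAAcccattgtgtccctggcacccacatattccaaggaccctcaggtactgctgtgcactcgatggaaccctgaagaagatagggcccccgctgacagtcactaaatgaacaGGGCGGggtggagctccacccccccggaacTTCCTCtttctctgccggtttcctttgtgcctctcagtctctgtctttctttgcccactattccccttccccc
Each has 2 GAGGAA matches. Over the 13 windows GAGGAA was found in 3, the other being a Cd82 window in which no annotated transcript of the files starts within 50 bases, while 28.3% of all 32851 windows of this length hold it. GGGCGG was found in 7 of the 13, against 35.7% of all windows, and TATAAA in 1 (Cd81), against 13.6%. The windows of Cd9, Cd81, Cd151 and Tspan3 hold no GAGGAA. The median window of the 8 genes was 60.7% GC with 15 CpG, against 52.7% and 7 over all windows, and Cd53 had the lowest GC of the 13, 46.3%, and 4 CpG, as few as a Cd151 and a Cd82 window. A match is a description of letters and not a shown binding site.

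Cd151 and Tspan4 are neighbours on chromosome 7, 3766 bases apart on the same strand with Polr2l between them, and Cd81 lies 1559311 bases beyond Tspan4. On the opposite strand, Tspan4 shares 292 exonic bases with Chid1, which had 5.81 ± 0.299 TPM. No source used here states whether the libraries kept strand, so it is not known whether reads from those bases were assigned to the right gene. The antisense genes sharing exonic bases with Cd9, Cd37, Cd81 and Cd151 were at 0.197 TPM or below.

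How the spread of the 8 genes between libraries compared with that of other genes depended on the measure. Over all 3 libraries it was near theirs in log2(TPM + 1) and wider after rescaling. The median SD of log2(TPM + 1) was 0.163 for the 8, against 0.160 over the 9730 genes averaging 1 TPM or more. On the rescaled values it was 0.164 against 0.101. Without replicate 1 the TPM values gave 0.0976 against 0.107. The ratio of the highest to the lowest library had a median of 1.24 rescaled, against 1.14 over protein-coding genes. The biological coefficient of variation from edgeR estimates the spread of counts beyond counting error. Each gene's estimate is drawn toward a trend over all genes by level. Its median was 9.12% for the 8, against 10.4% over 12430 genes of all levels. It ranged between 7.65% for Cd82 and 12.7% for Cd53, and the trend at their levels between 9.26% for Tspan4 and 11.7% for Cd53. Cd82, with a trend value of 9.43%, had a coefficient of variation of 2.62% in rescaled TPM. Its 7.65% is therefore not a spread measured in this gene alone. Counting error alone would give between 0.567% for Cd53 and 2.49% for Cd82.

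In TPM, replicate 1 was the highest library for 6 of the 8 genes, and 82.1% of protein-coding genes averaging 1 TPM or more behaved this way. After rescaling, replicate 1 was highest for 4 (background 30.4%), replicate 2 for 0 (31.3%) and replicate 3 for 4 (38.3%). Cd53, Cd9, Tspan4, Tspan3 and Cd82 were lowest in replicate 2, 5 of the 8 against 31.9% of those protein-coding genes. The nuclear RNA Malat1 had 359, 248 and 763 TPM and was also lowest in replicate 2; the part of nuclear RNA in these differences was not tested.

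For each gene the protein-coding gene with the nearest rescaled level in the 3 libraries was found by the root mean square difference of log2 values over 3 libraries. Cd53 was nearest to Zfp36 (0.03), Cd9 to Clec2d (0.04), Cd37 to Mtss1 (0.05) and Cd81 to Nono (0.02). Cd82 was nearest to Rhoq (0.02), Cd151 to Dag1 (0.03), Tspan3 to Odc1 (0.05) and Tspan4 to Hadha (0.03). Within 0.1 of Cd53 there were 2 of 22007 genes, and within 0.1 of Cd82 there were 199, so at common levels many genes lie as near.

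Genes of known tetraspanin partners, of extracellular vesicle machinery and of macrophage fusion were measured in the same libraries. Over these 49 genes in 5 lists, 34 reached 1 TPM in all 3 libraries, against 40.5% of protein-coding genes. After rescaling 39 did so, against 47.4%, with Itgal, Hbegf, Prkca, Scimp and Rab27a added. Of the integrin and adhesion genes 9 of 11 reached 1 TPM, led by Itgb1 (95.9 ± 6.24 TPM), Itgb2 (90.1 ± 5.70 TPM) and the hyaluronan receptor Cd44 (51.2 ± 2.92 TPM). Itga3, the laminin-binding partner of Cd151, was below 1 TPM in every library, with a mean of 0.0533 TPM, whereas Itga6, another laminin-binding chain, had 27.8 ± 4.72 TPM. Within a library Itgb1 exceeded Cd9 by 1.08 ± 0.20 on the log2 scale, and Cd53 exceeded Itgb1 by 1.21 ± 0.22.

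Of the immunoglobulin-superfamily and other direct partners, 9 of 16 reached the limit, led by the beta-glucan receptor Clec7a (135 ± 35.4 TPM), the scavenger receptor Cd36 (116 ± 44.2 TPM) and the sheddase Adam17 (23.3 ± 5.63 TPM). Igsf8, a direct partner of Cd9 and Cd81, had 9.89 ± 0.225 TPM. Their other such partner, Ptgfrn, had 0.173 TPM. Cr2, a complement receptor of B cells, was at 0.04 TPM, and Hbegf, which binds Cd9, was at 0.66 TPM. Prkca and Zdhhc2 were also below 1 TPM in every library.

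Among the group of tetraspanins that carry Adam10 to the cell surface, Tspan14 (20.4 ± 2.18 TPM), Tspan17 (7.23 ± 0.275 TPM) and Tspan5 (1.82 ± 0.478 TPM) reached the limit and Tspan10, Tspan15 and Tspan33 did not. After rescaling Tspan10 (2.96, 1.36 and 1.53) and Tspan33 (1.20, 1.09 and 1.27) also reached 1. Adam10 itself had 18.7 ± 2.49 TPM. The MHC class II genes, whose products are known from human cells to associate with several tetraspanins, all reached it, with Cd74 at 153, 72.4 and 80.8 TPM, H2-Aa at 60.7, 28.1 and 32.4 TPM and H2-Eb1 at 40.5, 18.8 and 19.6 TPM. Replicate 1 was highest for all 4 of them, in TPM, where this holds for 82.1% of protein-coding genes, and after rescaling, where 30.4% do so. Of the 8 tetraspanins 6 were highest there in TPM and 4 after rescaling.

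Of the extracellular vesicle genes 7 of 9 reached the limit, led by Hspa8 (367 ± 89.8 TPM), Sdcbp, which encodes the Cd63-binding syntenin (323 ± 41.5 TPM), and Sdc4 (52.8 ± 14.9 TPM), with Rab27a and Rab27b below it. Of the fusion genes 5 of 9 did so, led by Tyrobp (784 ± 122 TPM), Sirpa (459 ± 35.0 TPM) and Trem2 (300.3 ± 16.4 TPM). Dcstamp and Ocstamp, needed for the fusion of macrophages into giant cells, were at 0.167 TPM and listed at 0 TPM, and Cdh1 and Mmp9 were below 1 TPM as well.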

How the data were processed

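Gene and transcript tables of 3 libraries of 1 group, assigned by the labels, were used. Per notes deposited beside the tables, reads aligned to the transcriptome gave the gene table and the first transcript table, while the second transcript table was made from the read files directly; the build was mm10 and the annotation GENCODE M21. Quantification tools: not given in the sources used here. Expected counts, as the authors deposited them, are estimates and can be fractional. The deposited TPM sums to a fixed total per library, the deposited FPKM is per kilobase at a common depth, and the deposited percent column gives a transcript's share of its gene. Rows naming no gene held 0.402%, 0.108% and 0.122% of counts and were left out.

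The 8 genes and all gene lists were chosen with earlier results of these data known, so they support nothing by themselves. Named genes were the 8, the 5 highest other tetraspanins, the 3 highest of each partner list with those below 1 TPM in every library, transcripts at 10% or more, and the nearest gene by level; 1 gene that this rule would name is not reported here. Other tetraspanins below 1 TPM in every library could be named too. Other genes and transcripts in the text, such as Malat1, Itga6, Igsf8, Tspan5, Ppbp, Ngp, Kdr, Polr2l, Chid1, Itgal, Scimp, Cd37-201 and Cd81-204, were named outside this rule, after their values were seen. Detection meant 1 TPM in all libraries. For dispersion, rounded expected counts passing filterByExpr (minimum count 10) were scaled by TMM, with factors of 1.04, 1.01 and 0.959, and fitted in edgeR 4.0.16 (R 4.3.3) with an intercept only; DESeq2 1.42.0 size factors were an alternative. Libraries differed beyond counting noise in every pair, with a chi-square of 62.6 to 90.9 per gene over 9546 genes. Identities came from global BLOSUM62 alignments (Biopython 1.88). Spread and dispersion estimates were also run on simulated data in which all genes had the same known spread. Only a summary over all genes was kept, so this cannot show how good the estimate for a single gene is.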

Additional observations from a re-analysis of the deposited data

How the results depend on the processing

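All 8 tetraspanins kept their call at limits of 0.5 and 5 TPM, on every scale tried and without each library. At 5 TPM, 4 of the other 23 tetraspanins passed. The share of all genes passing at 0.5 or 5 TPM was not computed. The median level of the 8 genes follows the scale: 126 rescaled, 55.6 as FPKM, 10.8 in the second transcript table and 124 in that table after rescaling, the last setting chosen after seeing the data. In that table nuclear-encoded protein-coding genes took 10.5%, 8.92% and 6.71% of the TPM in replicates 1, 2 and 3. Without 1 library the median level in TPM was 26.0 to 29.5. The number of separated neighbouring pairs was 3 in TPM and in the second transcript table. Rescaled TPM and FPKM had to give 3 as well, because a library's scale cancels in ratios taken within it. Without 1 library, where only 2 libraries remain, the number was 3 to 5. Tspan4 over Tspan3 was not separated without replicate 1 or without replicate 2, and Cd9 over Cd37 was separated in both. The median spread of the 8 was 0.104 at a pseudocount of 10, against 0.0723 over genes averaging 1 TPM or more. At a pseudocount of 0.1 it was 0.174 against 0.188. As FPKM it was 0.140 against 0.110, and after TMM, per kilobase, 0.132 against 0.0944. In the second table it was 0.248 against 0.220, and 0.155 against 0.107 there after rescaling. Without 1 library it was 0.0976 to 0.189. No ratio of a separated pair changed its direction. Member levels without 1 library stayed between 0.884 and 1.09 times the level with all 3. No paired analysis was possible because there is 1 group. Transcript shares rest on reads that several transcripts share, and the 2 tables differ most for Cd151 and Cd82. A deeper library narrows counting error but not the spread between 3 libraries, and the exact two-sided sign-flip test over 3 libraries cannot go below 0.25.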
